A study of Mus musculus with 3 samples.

Results

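The Zfp genes, a large set of mouse genes named for the zinc fingers of their proteins, were followed through the splicing tables of 3 hippocampal libraries. Every event whose gene symbol starts with Zfp and a digit was taken, which gave 117 events in 78 genes of 8727 events in 4860 genes. The tissue came from C57BL/6J wild-type mice aged 10 weeks, with 1 mouse in each of 3 groups, so that no difference below has a replicate check. The study states that the tissue was taken 10 days after gene transfer. All mice had received AAV9, a viral vector, in the CA1 region of both hippocampi, with CTG repeats placed in the 3′-UTR of an Egfp reporter. One group carried 300 repeats and received CWG-cPIP, a cyclic pyrrole-imidazole polyamide that binds CAG and CTG repeat DNA (CUG300 + CWG-cPIP). Another carried 300 repeats and received vehicle (CUG300 + vehicle), and the control carried 10 repeats and received vehicle (CUG10 + vehicle). Each library was made from total RNA of the hippocampus, and which share of its cells carried the vector is not given in the sources used here.

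A classical zinc finger is a short fold in which 2 cysteines and 2 histidines hold a zinc ion (C2H2), and an array of such fingers can read a DNA sequence. Many Zfp proteins also carry a KRAB domain, which recruits the corepressor TRIM28 (KAP1) and through it chromatin-silencing enzymes, and KRAB zinc-finger proteins are known for the repression of transposable elements. In these genes the KRAB box and the finger array lie in separate exons, so that a transcript can hold the finger exon without the KRAB exon. Whether the fingers are then still translated depends on the reading frame. Other Zfp genes are built differently. Zfp638 encodes a large nuclear protein that binds nucleic acids, Zfp207 a spindle and kinetochore protein (BuGZ), and Zfp365 a brain-enriched protein.

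A search of the annotated proteins showed both kinds among the 78 genes. At least 1 C2H2 motif was found in 74 genes, and the 4 without were Zfp330, Zfp365, Zfp703 and Zfp839, named here after their values were seen. A KRAB-like motif was found in 31 genes, in an exon of 127 nt for 24 of them and of 124 nt for 2. The KRAB-like genes had a median of 12 C2H2 motifs, and in 30 of 31 the last exon held more of them than any other exon. The other Zfp genes had a median of 7. Chromosome 7 held the most members (16 genes), followed by chromosome 8 (11) and chromosome 17 (9).

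The alternative exon itself held the KRAB-like motif in 7 skipped exons of 7 genes. They are shown because they hold the codons of the motif. None of the 7 has a length that keeps the reading frame, so its loss alone would also shift the frame of the coding exons after it. Which protein such a transcript would give was not examined. The sequences were read 5′ to 3′ from GENCODE M21 transcripts (build mm10), and capitals mark the codons of the motif.
Zfp251 (chr15:76870282-76870414, minus strand, 133 nt): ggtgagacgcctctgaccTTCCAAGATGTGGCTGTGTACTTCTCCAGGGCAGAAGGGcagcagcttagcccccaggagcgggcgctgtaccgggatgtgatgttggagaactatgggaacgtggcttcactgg
Zfp286 (chr11:62784879-62784993, minus strand, 115 nt): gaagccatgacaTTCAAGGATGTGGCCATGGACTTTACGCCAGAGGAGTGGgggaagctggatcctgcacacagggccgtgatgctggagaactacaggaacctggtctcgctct
Zfp426 (chr9:20474907-20475033, minus strand, 127 nt): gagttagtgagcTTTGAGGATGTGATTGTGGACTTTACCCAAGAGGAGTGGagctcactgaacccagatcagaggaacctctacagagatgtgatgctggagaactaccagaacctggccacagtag
Zfp30 (chr7:29788049-29788175, plus strand, 127 nt): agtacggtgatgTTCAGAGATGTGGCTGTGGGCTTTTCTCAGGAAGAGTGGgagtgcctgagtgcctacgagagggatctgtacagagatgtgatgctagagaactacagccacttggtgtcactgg
Zfp791 (chr8:85113507-85113633, minus strand, 127 nt): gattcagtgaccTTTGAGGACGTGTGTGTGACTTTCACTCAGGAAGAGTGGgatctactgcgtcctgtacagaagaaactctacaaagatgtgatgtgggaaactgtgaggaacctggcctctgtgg
Zfp551 (chr7:12418543-12418666, minus strand, 124 nt): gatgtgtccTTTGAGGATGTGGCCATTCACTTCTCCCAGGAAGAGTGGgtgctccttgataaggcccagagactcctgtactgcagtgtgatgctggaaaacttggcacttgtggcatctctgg
Zfp871 (chr17:32777401-32777527, minus strand, 127 nt): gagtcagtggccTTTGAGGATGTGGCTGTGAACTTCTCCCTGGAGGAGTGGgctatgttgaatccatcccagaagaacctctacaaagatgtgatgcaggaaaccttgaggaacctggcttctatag
The 4 exons of 127 nt were identical at 60.6% to 77.2% of positions in 6 pairwise comparisons without gaps.

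Other skipped exons lay directly beside the KRAB exon. Directly before it there were 7 such events in 6 genes. Skipped exons directly after it were found in 7 genes, of 61 nt in Zfp617, Zfp869, Zfp961 and Zfp963, of 96 nt in Zfp12 and Zfp715, and of 114 nt in Zfp688. All 4 exons of 61 nt lay on chromosome 8, were coding and were identical to each other at 47.5% to 67.2% of positions in 6 comparisons. They were grouped by their equal length, and the identity of unrelated exons of that length was not measured, so a resemblance was not tested. They are printed for comparison, with capitals at the MBNL tetramers. MBNL proteins are the splicing factors captured by expanded CUG RNA in myotonic dystrophy, and the tetramers searched were TGCT and TGCC, and the same with C in the first place (CGCT and CGCC).
Zfp869 (chr8:69708111-69708171, minus strand, 61 nt): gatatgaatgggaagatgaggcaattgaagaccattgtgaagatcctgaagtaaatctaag
Zfp617 (chr8:71929138-71929198, plus strand, 61 nt): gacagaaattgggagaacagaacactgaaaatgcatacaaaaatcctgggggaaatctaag
Zfp961 (chr8:71966100-71966160, plus strand, 61 nt): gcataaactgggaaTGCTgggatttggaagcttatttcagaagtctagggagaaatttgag
Zfp963 (chr8:69744192-69744252, minus strand, 61 nt): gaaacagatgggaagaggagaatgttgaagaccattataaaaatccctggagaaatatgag

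Zfp exons were similar to others in median length and differed at single lengths. Over distinct skipped exons the median length was 108 nt in 81 Zfp exons and 106 nt in 6119 exons of other genes. A length of 61 nt was found for 4.94% of Zfp exons and 0.507% of other exons, and a length of 127 nt for 4.94% and 0.556%. An exon of 127 nt was the alternative exon or its neighbour in 27 of 117 Zfp events (23.1%), against 151 of 8727 events of all genes (1.73%). A length that keeps the reading frame was found for 37.0% of the Zfp exons (95% Clopper-Pearson interval 26.6 to 48.5) and 47.8% of the others (46.5 to 49.0). MBNL tetramers were in the RNA sequence of 72.5% of 80 Zfp exons with a sequence and of 71.5% of 5863 other exons, at 1.29 and 1.52 tetramers per 100 nt. The opposite strand is not in the RNA and was not searched. These are properties of the exons listed and were given no test.

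**Figure D1:**
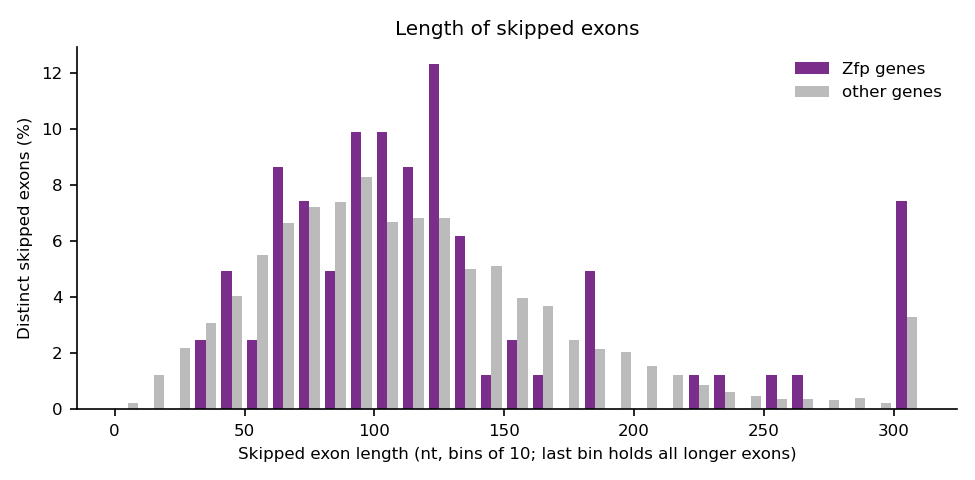
Share of distinct skipped exons (percent) by exon length in bins of 10 nt, for 81 exons of Zfp genes (purple) and 6119 exons of other genes (grey). The medians were close, at 108 and 106 nt, and the highest Zfp bin was the one that holds the KRAB exon length of 127 nt.

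Most Zfp events, 85 of 117, were skipped exons (SE). A choice between 5′ splice sites (A5SS) made up 15, a choice between 3′ splice sites (A3SS) 13, a swap of 2 exons (MXE) 2 and a retained intron (RI) 2. Skipped exons made up 72.6% of Zfp events and 74.8% of all events. A5SS events made up 12.8% of Zfp events and 7.13% of all events. The alternative part was coding in at least 1 transcript in 76 events, in the 5′ UTR in 33 and in the 3′ UTR in 1, and 7 lay in noncoding transcripts or outside annotated exons. An exon that occurs with different neighbours was listed more than once, so that the 117 events had 112 distinct alternative parts.

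The Zfp events were thinly covered. In all 3 libraries together 92 events in 59 genes had counts, and the other 25 events were absent from the tables of at least 1 library. Over the 92 events there were 1936 counts in CUG300 + CWG-cPIP, 951 in CUG300 + vehicle and 1644 in CUG10 + vehicle. These were 0.345%, 0.168% and 0.270% of the 560672, 567697 and 609546 counts at all events in the same libraries. The median Zfp event had 8, 4 and 8 counts, against 24, 13 and 22 for all genes. A depth of 10 counts per library was reached by 22 of 92 Zfp events (23.9%) and by 53.9% of all events. Every listed event had at least 1 read of each form in its pair, so an exon that was always included was not in the tables.

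Libraries also differed in cell markers. The CUG300 + vehicle library had 67703 CPM (counts scaled to a library total of 1000000 counts at all events) of Ttr, the choroid plexus transcript, against 112 in CUG300 + CWG-cPIP and 171 in CUG10 + vehicle. The summed level of 7 microglia and immune markers was 5005, 20053 and 2869 CPM in CUG300 + CWG-cPIP, CUG300 + vehicle and CUG10 + vehicle, and that of 7 neuron markers was 9588, 4635 and 10145 CPM. Of the fixed marker lists, 7 of 8 neuron, 7 of 12 immune, 1 of 6 astrocyte, 4 of 7 oligodendrocyte, 2 of 4 endothelial and mural and 2 of 5 choroid plexus genes had counts in all libraries. All 7 immune markers were higher in CUG300 + vehicle than in CUG10 + vehicle, and the 7 neuron markers were lower, except Nrgn with trimmed-mean (TMM) scaling. The 1 astrocyte marker listed, Gfap, had 961, 1402 and 518 CPM in the same order, while the sums were 9763, 7317 and 8770 CPM for 4 oligodendrocyte markers and 55.3, 29.9 and 47.6 CPM for 2 endothelial and mural markers. The part of these shifts in any Zfp difference was not tested, and in bulk tissue fewer cells of a type cannot be told apart from less RNA per cell.

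The first question was whether inclusion at Zfp exons differed when the long repeat was expressed. Inclusion is given as PSI, the share of transcripts that include the alternative part after each count is divided by the length of its form. Of the Zfp events, 17 in 12 genes had at least 10 counts in both libraries of the pair CUG300 + vehicle and CUG10 + vehicle. None was called at an adjusted p below 0.05 (two-sided Fisher's exact test with Benjamini-Hochberg adjustment) and a PSI difference beyond 0.15, and 1 of 17 had an unadjusted p below 0.05, beside 4.03% of all events tested. This test compares the reads of 2 libraries and not the conditions. Over all genes the same rule called 10 of 3573 events (0.280%). A difference beyond 0.15, whatever its p, was found in 6 of 17 Zfp events and in 17.4% of all events tested. It was higher in CUG300 + vehicle in 1 Zfp event and lower in 5, beside 6.19% and 11.2% of all events. In 4 of those 6 the rarer form had at most 2 reads in both libraries together, against 40.7% of such events over all genes.

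Between CUG300 + CWG-cPIP and CUG300 + vehicle, 19 Zfp events in 14 genes were tested and none was called, nor did any have an unadjusted p below 0.05 by the same exact test, beside 5.24% of all events. Over all genes 32 of 3642 events were called (0.879%). The difference was beyond 0.15 in 7 Zfp events, beside 18.9% of all events. It was higher in CUG300 + CWG-cPIP in 6 and lower in 1, beside 12.8% and 6.10% of all events, and in 5 of the 7 the rarer form had at most 2 reads, against 39.0% over all genes. Between CUG300 + CWG-cPIP and CUG10 + vehicle, 25 Zfp events in 17 genes were tested. Again none was called, beside 9 of 4362 events over all genes (0.206%), and none had an unadjusted p below 0.05, beside 3.03%. The difference was beyond 0.15 in 5 Zfp events, beside 16.9% of all events. It was higher in 3 and lower in 2, beside 9.08% and 7.77%, and in 4 of the 5 the rarer form had at most 2 reads, against 42.6% over all genes. The median 95% interval of a tested Zfp difference was 0.612, 0.610 and 0.522 PSI wide in these 3 pairs, in the order given here, so that a difference of the size threshold was not detectable at this depth in most events.

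The 1 event with an unadjusted p below 0.05, a share near that of all events, was in Zfp207. Its product binds the checkpoint protein BUB3 and microtubules. The coding exon of 93 nt had 44 inclusion and 2 skipping counts in CUG300 + CWG-cPIP, 28 and 6 in CUG300 + vehicle, and 43 and 1 in CUG10 + vehicle. Its PSI was 0.907 (95% interval 0.718 to 0.988) in CUG300 + CWG-cPIP, 0.674 (0.457 to 0.859) in CUG300 + vehicle and 0.950 (0.764 to 0.999) in CUG10 + vehicle. The CUG300 + vehicle library was the low one, and its interval overlapped those of the other libraries. CUG300 + vehicle minus CUG10 + vehicle was -0.276 (-0.486 to -0.0366, Newcombe interval), with an exact p of 0.0389 and an adjusted p of 1.00. As a plain share of counts it was -0.154. CUG300 + CWG-cPIP minus CUG300 + vehicle was 0.233 (-0.00815 to 0.450, exact p = 0.0662), or 0.133 as a plain share, under the size threshold, and CUG300 + CWG-cPIP minus CUG10 + vehicle was -0.0432 (-0.232 to 0.151). The comparisons share libraries, so that the same 34 counts of CUG300 + vehicle stand behind both of the larger differences.

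The other coding parts of Zfp207 were included in nearly all reads. A coding exon of 48 nt had a PSI of 0.960 in CUG300 + CWG-cPIP, 0.912 in CUG300 + vehicle and 1.00 in CUG10 + vehicle, with 1, 1 and 0 skipping counts. A 5′ splice site choice of 12 nt had a PSI of 0.957, 1.00 and 1.00 in the same order of libraries. The interval of each difference tested included 0. An exon of 44 nt in the 3′ UTR had 2 inclusion and 1 skipping counts in CUG300 + CWG-cPIP and 1 inclusion count in each other library, too few for a level.

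The coding parts of Zfp207, Zfp638 and Zfp428 that the results turn on are printed here, with capitals again at the MBNL tetramers.
Zfp207 (chr11:80393084-80393176, plus strand, 93 nt): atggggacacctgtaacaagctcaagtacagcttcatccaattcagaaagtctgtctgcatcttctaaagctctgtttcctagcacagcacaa
Zfp638 (chr6:83981684-83981785, plus strand, 102 nt): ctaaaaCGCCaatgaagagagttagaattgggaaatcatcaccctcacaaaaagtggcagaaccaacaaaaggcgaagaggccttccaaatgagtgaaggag
Zfp428 (chr7:24515037-24515075, plus strand, 39 nt): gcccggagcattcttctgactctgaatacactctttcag
The Zfp207 exon held no such tetramer, while 70.1% of 952 exons of other genes within 10 nt of its length held at least 1. The Zfp638 exon held 1, and 73.1% of 903 other exons of like length held at least 1. A match is a string of letters and no more.

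The human counterpart of Zfp638 binds cytidine-rich DNA and takes part in the silencing of unintegrated retroviral DNA. Its coding exon of 102 nt was mostly skipped. It had 8 inclusion and 31 skipping counts in CUG300 + CWG-cPIP, 13 and 40 in CUG300 + vehicle, and 6 and 35 in CUG10 + vehicle. The PSI was 0.0979 (0.0413 to 0.194), 0.120 (0.0628 to 0.207) and 0.0672 (0.0242 to 0.148) in the same order, with wide overlap. The difference between CUG300 + vehicle and CUG10 + vehicle was 0.0530 (-0.0388 to 0.143, exact p = 0.304). The same exon with another upstream neighbour had only 6, 13 and 6 counts and a PSI of 1.00, 0.835 and 1.00, so that the 2 listings of 1 exon gave opposite levels. Another coding exon of Zfp638, of 84 nt, had 8, 4 and 10 counts and a PSI of 0.319, 0.319 and 0.238.

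Zfp428, which encodes a small protein with 1 C2H2 motif, had an alternative 3′ splice site that adds 39 coding nt. Inclusion and skipping counts were 9 and 16 in CUG300 + CWG-cPIP, 22 and 31 in CUG300 + vehicle, and 10 and 25 in CUG10 + vehicle. The PSI was 0.269 (0.125 to 0.470), 0.317 (0.204 to 0.453) and 0.208 (0.101 to 0.361), and the 3 intervals overlapped. CUG300 + vehicle minus CUG10 + vehicle was 0.110 (-0.0662 to 0.267, exact p = 0.262). Other 3′ splice sites of Zfp428 were nearly fixed. PSI was at least 0.949 in every library at the sites of 139 and 162 nt and at most 0.0743 at the site of 23 nt.

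Zfp444 had an exon of 120 nt in the 5′ UTR that was used in both forms. It had 17 inclusion and 11 skipping counts in CUG300 + CWG-cPIP, 7 and 4 in CUG300 + vehicle and 8 and 7 in CUG10 + vehicle, and its PSI was 0.371 (0.207 to 0.582), 0.400 (0.145 to 0.757) and 0.304 (0.121 to 0.585). Zfp821 had a 5′ splice site choice of 19 nt with PSI values of 0.560, 0.544 and 0.570. The levels of both genes lay within 0.10 PSI of each other in the 3 libraries.

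The deepest Zfp events were exons that were almost always included, and several of them were very long. The 1228-nt coding exon of Zfp638 had 283 inclusion and 0 skipping counts in CUG300 + CWG-cPIP, 69 and 1 in CUG300 + vehicle and 191 and 1 in CUG10 + vehicle. Its PSI was 1.00 (0.812 to 1.00), 0.797 (0.405 to 0.994) and 0.916 (0.658 to 0.998). The step of 0.203 between CUG300 + CWG-cPIP and CUG300 + vehicle (-0.0477 to 0.593, exact p = 0.198) rested on 1 skipping read, because inclusion reads of a long exon are divided by a long form. As a plain share of counts the step was 0.0143. The 1513-nt exon of the same gene had 1 skipping read among 165 counts in CUG300 + CWG-cPIP, none among 23 in CUG300 + vehicle and none among 79 in CUG10 + vehicle, and that read put its PSI at 0.884 (0.575 to 0.997).

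Zfp451, whose human counterpart is a SUMO ligase, had a 1595-nt exon of the same kind. It had 68 inclusion and 0 skipping counts in CUG300 + CWG-cPIP, 40 and 1 in CUG300 + vehicle and 62 and 0 in CUG10 + vehicle. That 1 read gave a PSI of 0.639 (0.231 to 0.986) in CUG300 + vehicle, against 1.00 in both other libraries, and the difference from CUG10 + vehicle was -0.361 (-0.765 to 0.282). The plain share differed by -0.0244. Zfp644, which in human cells recruits the histone methyltransferases G9a and GLP, had a 606-nt exon with 109 and 0, 33 and 0, and 60 and 2 counts in CUG300 + CWG-cPIP, CUG300 + vehicle and CUG10 + vehicle. Here the 2 skipping reads were in CUG10 + vehicle, whose PSI was 0.766 (0.464 to 0.965).

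Among shorter exons, the 181-nt coding exon of Zfp365 was included at 0.984 (0.914 to 1.00) in CUG300 + CWG-cPIP, 1.00 (0.818 to 1.00) in CUG300 + vehicle and 1.00 (0.932 to 1.00) in CUG10 + vehicle, from 208, 59 and 177 counts. The difference of CUG300 + CWG-cPIP from CUG10 + vehicle lay between -0.0864 and 0.0545. The 234-nt exon of Zfp523, a relative of human ZNF76, had PSI values of 0.951, 1.00 and 1.00, the 116-nt exon of Zfp651 0.932, 1.00 and 0.948, and the 124-nt exon of Zfp740 0.936, 1.00 and 1.00. In Zfp664 (155 nt, 5′ UTR) and Zfp330 (71 nt, coding) a single skipping read in CUG300 + vehicle gave PSI values of 0.764 and 0.836 from 11 counts each, while both other libraries were at 1.00. In Zfp672 (161 nt, 5′ UTR) a single skipping read in CUG300 + CWG-cPIP gave 0.739 from 10 counts, against 1.00 in CUG300 + vehicle and in CUG10 + vehicle.

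**Figure D2:**
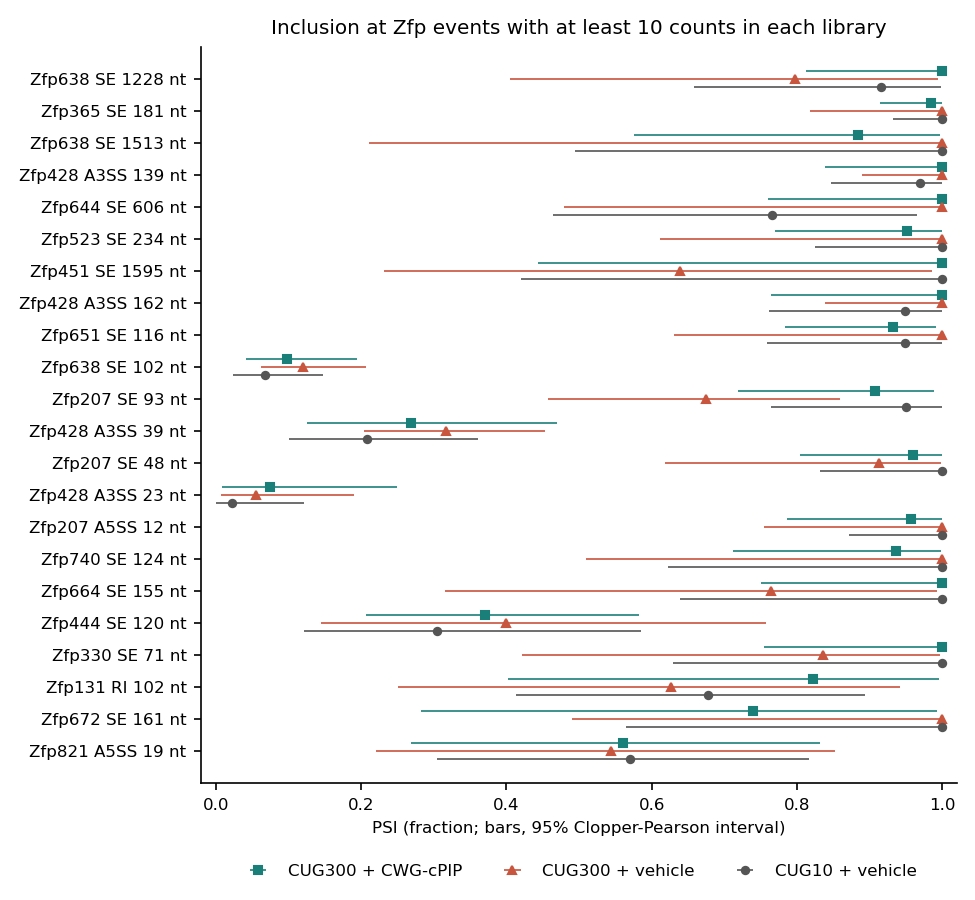
PSI (fraction) in CUG300 + CWG-cPIP (squares), CUG300 + vehicle (triangles) and CUG10 + vehicle (circles) for 22 Zfp events that reached 10 counts in every library, with 95% Clopper-Pearson intervals from 1 mouse per group. In 8 events PSI was above 0.9 in every library and in 3 it was below 0.4, and the Zfp207 exon of 93 nt was lower in CUG300 + vehicle (0.674) than in CUG300 + CWG-cPIP (0.907) and CUG10 + vehicle (0.950).

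Retained introns and mutually exclusive exons were few. Zfp131, a BTB-domain zinc-finger gene, had a 102-nt retained segment with 11 inclusion and 1 skipping counts in CUG300 + CWG-cPIP, 8 and 2 in CUG300 + vehicle and 20 and 4 in CUG10 + vehicle, and its PSI was 0.822 (0.402 to 0.995), 0.627 (0.251 to 0.942) and 0.678 (0.413 to 0.894). The retained intron of Zfp446 had 1 count in CUG300 + CWG-cPIP, 1 in CUG300 + vehicle and 2 in CUG10 + vehicle, too few for a level. Zfp740 had a 203-nt 5′ splice site choice in the 5′ UTR with PSI values of 0.860 (0.499 to 0.996), 0.652 (0.194 to 0.988) and 0.471 (0.187 to 0.834). CUG300 + CWG-cPIP minus CUG10 + vehicle was 0.389 (-0.0564 to 0.674, exact p = 0.115). The mutually exclusive exons of Zfp141 were at 0.408 in CUG300 + CWG-cPIP and 0.445 in CUG10 + vehicle, from 9 and 4 counts.

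At the KRAB exons printed above, most reads included the exon. Zfp251 had 9 inclusion and 2 skipping counts in CUG300 + CWG-cPIP, 6 and 1 in CUG300 + vehicle and 19 and 0 in CUG10 + vehicle. Zfp286 had 10 and 1, 5 and 1, and 14 and 1 counts in CUG300 + CWG-cPIP, CUG300 + vehicle and CUG10 + vehicle. Zfp426 had 5 and 0, 6 and 1, and 15 and 1, and Zfp30 had 7 and 0, 5 and 1, and 12 and 0, in the same order of libraries. Summed over these 4 exons there were 31 inclusion and 3 skipping counts in CUG300 + CWG-cPIP, 22 and 4 in CUG300 + vehicle, and 60 and 2 in CUG10 + vehicle. Only Zfp251 and Zfp286 reached the minimum for a test, both between CUG300 + CWG-cPIP and CUG10 + vehicle. The difference was -0.383 (-0.718 to 0.0570, exact p = 0.126) for Zfp251 and -0.0492 (-0.472 to 0.352, exact p = 1.00) for Zfp286. Zfp791, Zfp551 and Zfp871 had counts in 2 libraries each, with 1 to 5 counts per library. KRAB zinc-finger genes have close relatives with repeated fingers, so reads of one can be assigned to another, which makes these counts uncertain.

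Zfp426 also had its KRAB exon in a pair of mutually exclusive exons. The form with an 83-nt coding exon had 7 counts in CUG300 + CWG-cPIP, 3 in CUG300 + vehicle and 6 in CUG10 + vehicle, and the form with the 127-nt KRAB exon had 2, 5 and 11. The PSI of the 83-nt form was 0.818 (0.460 to 0.978), 0.434 (0.107 to 0.798) and 0.411 (0.175 to 0.673). CUG300 + CWG-cPIP minus CUG10 + vehicle was 0.406 (0.0232 to 0.646), from 9 and 17 counts, which is under the minimum for the test. Listed as a skipped exon, the 83-nt exon had PSI values of 1.00, 1.00 and 0.825 in CUG300 + CWG-cPIP, CUG300 + vehicle and CUG10 + vehicle, from 10, 3 and 11 counts. The KRAB exon listed in that way was at 1.00, 0.688 and 0.847, from 5, 7 and 16 counts. Both exons were mostly included in those listings, which did not show a swap between them. Of the 61-nt exons after the KRAB exon, Zfp869 had PSI values of 1.00, 1.00 and 0.868 from 16, 8 and 13 counts and Zfp617 of 0.793, 1.00 and 1.00 from 8, 6 and 8 counts.

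Of the Zfp events listed at any depth, the difference was beyond 0.15 in 54 of 74 between CUG300 + vehicle and CUG10 + vehicle, in 61 of 82 between CUG300 + CWG-cPIP and CUG300 + vehicle, and in 60 of 98 between CUG300 + CWG-cPIP and CUG10 + vehicle. Over all genes these shares were 41.8%, 42.7% and 38.8% of listed events. Of the Zfp events so found, 48, 54 and 55 had fewer than 10 counts in at least 1 library of the pair. Among listed events under that minimum the share beyond 0.15 was 84.2%, 85.7% and 75.3% for Zfp genes, beside 74.2%, 71.3% and 75.4% for all genes. An interval apart from 0 was found for 3, 4 and 2 Zfp events, beside 5.43%, 6.56% and 4.32% of all listed events. Those under the minimum were named after their values were seen. Zfp335, which acts in neural progenitors, had 17 inclusion and 0 skipping counts at a 306-nt exon in CUG300 + CWG-cPIP, 1 and 2 in CUG300 + vehicle and 8 and 0 in CUG10 + vehicle. Zfp280d had 7 and 1, 1 and 3, and 6 and 1 counts at a 46-nt exon, and Zfp239 had 17 and 3, 2 and 3, and 9 and 2 at a 180-nt exon of the 5′ UTR. Zfp414 had 2 and 8, 2 and 1, and 6 and 3 at a 77-nt exon, and a 108-nt exon of Zfp869 had a single count in CUG300 + vehicle. Exons of Zfp335, Zfp280d and Zfp239 had their lowest PSI in CUG300 + vehicle, from 3, 4 and 5 counts.

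The second measure was how many reads the Zfp events held in each library. Inclusion and skipping counts were summed over a gene's events and scaled to CPM. Events of a gene that share an exon share its reads, so that such reads were counted more than once. The intervals of totals and ratios take each count as independent, so they are too narrow for such genes. The summed counts are coverage of alternatively spliced parts and not a measure of gene expression. Totals of single genes, and sums over gene sets and markers, are read between libraries and not against each other. Of the 59 Zfp genes with counts in all libraries, 25 had at least 30 counts in sum. The 4 deepest genes, Zfp638, Zfp428, Zfp365 and Zfp207, held 51.8% of all 4531 Zfp counts.

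Zfp638 had 509 counts or 908 CPM (95% Poisson interval 831 to 990) in CUG300 + CWG-cPIP, 167 counts or 294 CPM (251 to 342) in CUG300 + vehicle and 340 counts or 558 CPM (500 to 620) in CUG10 + vehicle. The 3 intervals did not overlap, and CUG300 + vehicle was the lowest, but these intervals are too narrow because the 7 events summed share reads. The events also differed among themselves. In CUG300 + vehicle and CUG10 + vehicle the 1228-nt exon had 70 and 192 counts, while the mostly skipped listing of the 102-nt exon had 53 and 41. The ratio of CUG300 + vehicle to CUG10 + vehicle was 0.527 (0.436 to 0.637, exact binomial interval), that of CUG300 + CWG-cPIP to CUG300 + vehicle was 3.09 (2.59 to 3.70), and that of CUG300 + CWG-cPIP to CUG10 + vehicle was 1.63 (1.42 to 1.87).

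Zfp365 had 371 CPM (322 to 425), 104 CPM (79.1 to 134) and 290 CPM (249 to 336) in CUG300 + CWG-cPIP, CUG300 + vehicle and CUG10 + vehicle. Its CUG300 + vehicle to CUG10 + vehicle ratio of 0.358 (0.262 to 0.483) was the lowest of the 25 genes. Near it were Zfp523 at 0.377 (0.232 to 0.597) and Zfp651, a BTB-domain gene, at 0.403 (0.220 to 0.705). Zfp251 stood at 0.396 (0.141 to 0.983) from 7 and 19 counts.

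Zfp428 went the other way. It had 255 CPM (215 to 300) in CUG300 + CWG-cPIP, 407 CPM (356 to 463) in CUG300 + vehicle and 363 CPM (316 to 414) in CUG10 + vehicle. It was the only one of the 25 genes above 1 in the ratio of CUG300 + vehicle to CUG10 + vehicle, at 1.12 (0.929 to 1.36), and with TMM scaling 5 genes were above 1, Zfp428 among them at 1.58. Its CUG300 + CWG-cPIP to CUG300 + vehicle ratio was 0.627 (0.505 to 0.775). Zfp672 was close to it, with 49.9, 79.3 and 83.7 CPM and ratios of 0.947 (0.620 to 1.44) and 0.630 (0.378 to 1.03) in the same pairs. Zfp330 (0.844, 0.347 to 2.00) and Zfp444 (0.787, 0.327 to 1.83) were next in the first of these ratios, from 11 counts each in CUG300 + vehicle.

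The other deep genes were lowest in CUG300 + vehicle. Zfp207 had 209, 120 and 177 CPM in CUG300 + CWG-cPIP, CUG300 + vehicle and CUG10 + vehicle, Zfp644 had 194, 58.1 and 102 CPM, and Zfp523 had 144, 45.8 and 121 CPM. Zfp451 had 121, 72.2 and 102 CPM, Zfp740 had 148, 44.0 and 70.5 CPM, and Zfp651 had 128, 31.7 and 78.7 CPM. For Zfp451 and Zfp740 the interval of the CUG300 + vehicle to CUG10 + vehicle ratio included 1.

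Over the 25 genes, the ratio of CUG300 + vehicle to CUG10 + vehicle was below 1 in 24 (20 with TMM scaling), with a median of 0.537. Its interval lay below 1 in 9 genes and above 1 in 0. Over 3366 genes with the same minimum the median was 0.703, with 73.0% of genes below 1, the interval below 1 in 41.7% and above 1 in 11.4%. The share of Zfp genes with an interval below 1 was thus near that of all genes, but such a share depends on depth. The median Zfp event had 4 counts in CUG300 + vehicle, against 13 for all genes. With TMM scaling the Zfp median was 0.754 and that of all genes 0.987, so the scaling moved both. The interval then lay below 1 in 4 and above 1 in 1 Zfp gene, beside 20.7% and 24.7% of all genes.

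The ratio of CUG300 + CWG-cPIP to CUG300 + vehicle was above 1 in 22 of 25 Zfp genes (20 with TMM scaling), with a median of 2.58, against 1.63 over all genes. The interval was above 1 in 16 and below 1 in 1 Zfp gene, beside 50.3% and 14.0% of all genes. With TMM scaling the medians were 1.64 and 1.04, and 8 Zfp genes had an interval above 1 and 2 below, beside 27.2% and 29.2% of all genes. The highest ratios were those of Zfp335 (4.86, 1.82 to 16.3), Zfp651 (4.05, 2.39 to 7.22), Zfp239 (4.05, 1.48 to 13.8) and Zfp384 (3.85, 1.39 to 13.2). The lowest were those of Zfp428 and Zfp672, then Zfp688 (0.759, 0.217 to 2.50) and Zfp131 (1.22, 0.481 to 3.14). Both comparisons hold the CUG300 + vehicle library, the one with the marker shifts above.

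The ratio of CUG300 + CWG-cPIP to CUG10 + vehicle does not use that library. It was above 1 in 18 and below 1 in 7 of 25 Zfp genes (17 and 8 with TMM scaling), with a median of 1.36 against 1.14 over all genes. Its interval lay above 1 in 8 and below 1 in 4 Zfp genes, beside 23.5% and 11.7% of all genes. With TMM scaling it lay above 1 in 3 and below 1 in 4 Zfp genes, beside 15.1% and 17.7% of all genes, so that the balance depended on the scaling. Zfp335 (2.37, 1.12 to 5.36), Zfp740 (2.10, 1.44 to 3.11), Zfp444 (2.03, 1.05 to 4.09) and Zfp239 (1.98, 0.903 to 4.57) were highest. Zfp688 (0.362, 0.118 to 0.953), Zfp131 (0.544, 0.248 to 1.13), Zfp426 (0.576, 0.347 to 0.935) and Zfp672 (0.597, 0.362 to 0.965) were lowest. Zfp genes with a KRAB-like motif and at least 30 counts numbered 6, with a median of 0.713 in this ratio, and the 19 others had a median of 1.63 (0.637 and 1.46 with TMM scaling). The 6 genes ranged from 0.362 to 1.57, with 2 above 1 and 4 below, from 6 to 27 counts in CUG300 + CWG-cPIP. Of the others 16 were above 1 and 3 below. In the other ratios both sets lay on the same side of 1. Their medians were 0.470 and 0.571 for CUG300 + vehicle over CUG10 + vehicle, and 1.72 and 3.09 for CUG300 + CWG-cPIP over CUG300 + vehicle. Over all Zfp genes with counts in the 3 libraries, whatever their depth, 22 KRAB-like genes summed to 341, 199 and 366 CPM in CUG300 + CWG-cPIP, CUG300 + vehicle and CUG10 + vehicle, and the 37 others to 3112, 1476 and 2331 CPM.

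**Figure D3:**
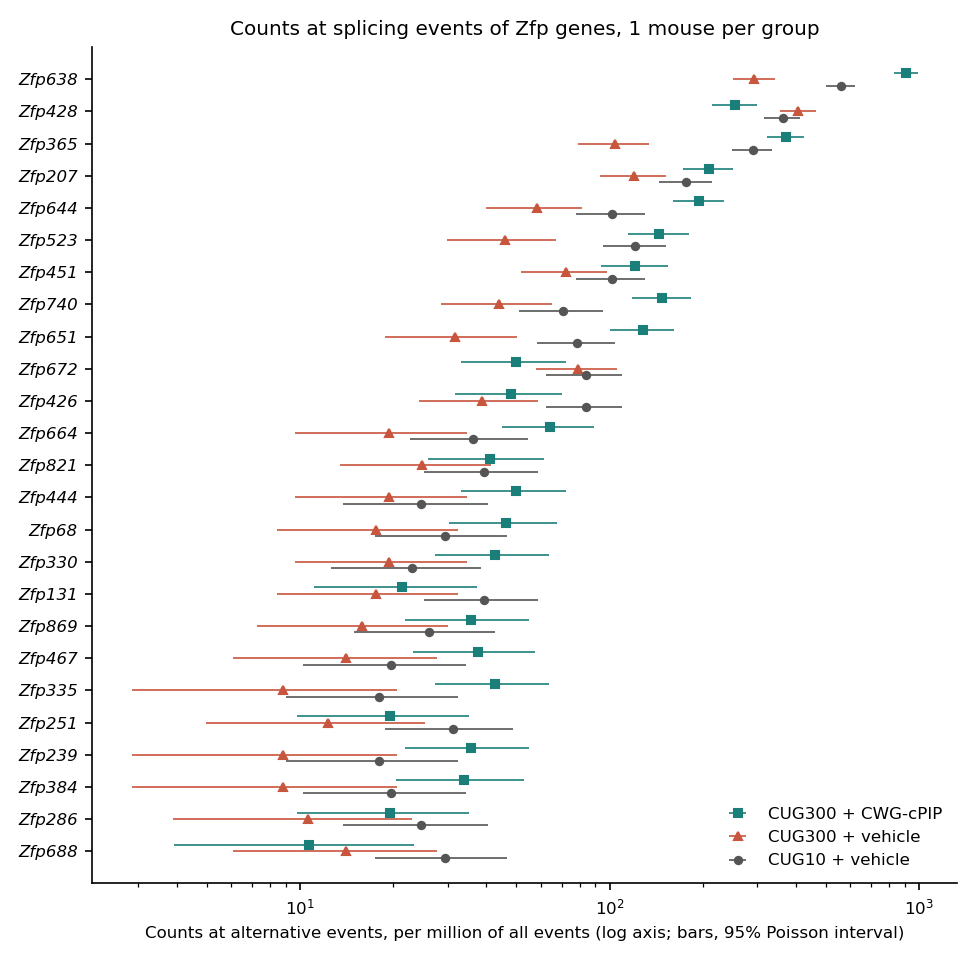
CPM, counts scaled to a library total of 1000000 (log axis), at the events of the 25 Zfp genes with at least 30 counts, in CUG300 + CWG-cPIP (squares), CUG300 + vehicle (triangles) and CUG10 + vehicle (circles), with 95% Poisson intervals from 1 mouse per group. CUG300 + vehicle was the lowest library in 22 of 25 genes (17 with TMM scaling), and Zfp428 was highest in it, at 407 CPM.

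**Figure D4:**
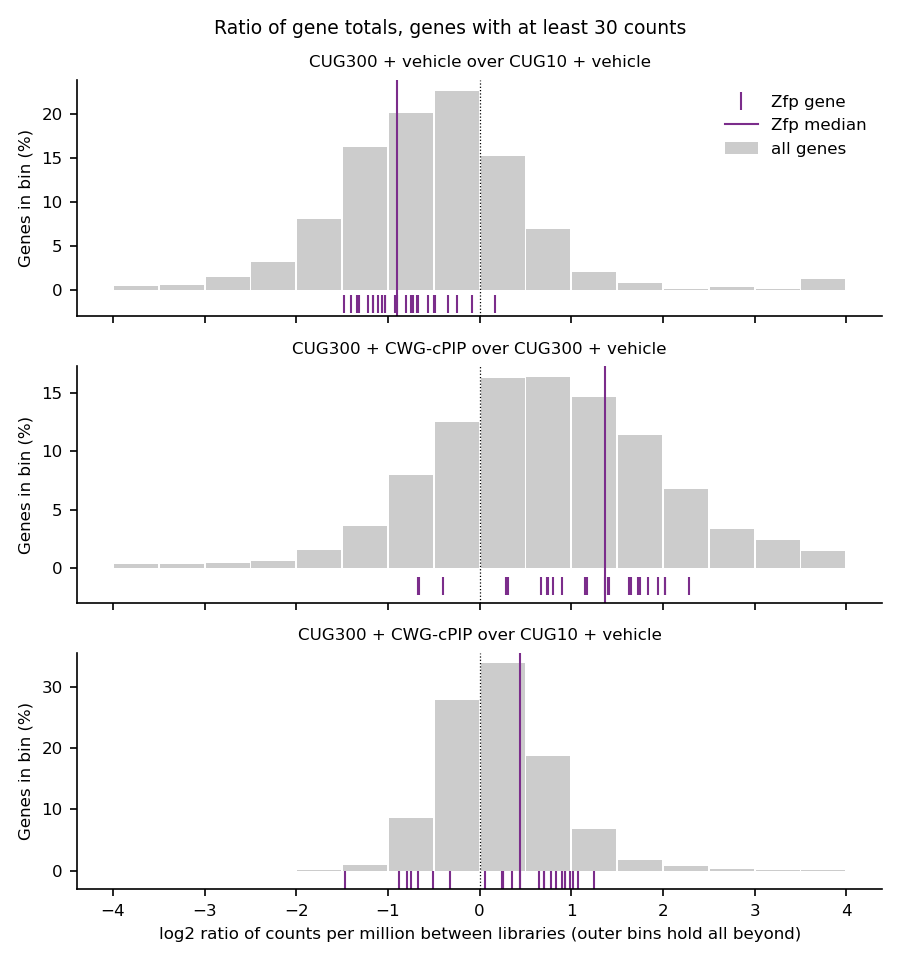
Distribution of the log2 ratio of gene totals over 3366 genes with at least 30 counts (grey bars, percent of genes per bin), with each of 25 Zfp genes as a tick and their median as a line, for 3 pairs of libraries. On the linear scale the Zfp medians were 0.537 for CUG300 + vehicle over CUG10 + vehicle, 2.58 for CUG300 + CWG-cPIP over CUG300 + vehicle and 1.36 for CUG300 + CWG-cPIP over CUG10 + vehicle.

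CUG300 + vehicle was the lowest library in 88.0% of the 25 Zfp genes and in 66.2% of all genes with the same minimum, and with TMM scaling in 68.0% and 43.7%. Other zinc-finger genes of the Zbtb, Zkscan, Prdm and like families, 12 with at least 30 counts, had medians of 0.402, 2.63 and 1.43 in the 3 ratios in the order above. No event of these families was called in any pair, with 9, 7 and 4 tested and 0 with an unadjusted exact p below 0.05 in each.

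Of 37 genes for KRAB corepressors and their chromatin-silencing partners, 19 had an event and 14 reached 30 counts. Trim28 and Setdb1, the histone methyltransferase it recruits, were not among the 19. The 14 genes had median ratios of 0.786 for CUG300 + vehicle over CUG10 + vehicle, 1.54 for CUG300 + CWG-cPIP over CUG300 + vehicle and 1.09 for CUG300 + CWG-cPIP over CUG10 + vehicle. Of their events 14, 12 and 13 were tested in these pairs, none was called and none had an unadjusted exact p below 0.05. Among Zfp genes grouped by known role, 3 of 8 genes for RNA binding or the spindle had an event (Zfp207, Zfp346 and Zfp638). Their sum was 1136 CPM in CUG300 + CWG-cPIP, 423 in CUG300 + vehicle and 746 in CUG10 + vehicle. Most of it was Zfp638, with 908, 294 and 558 CPM in the same order, so the sum mainly repeats that gene. Of 22 neuronal and chromatin regulators 7 had an event, and 5 with counts in all libraries summed to 640, 192 and 450 CPM. Of this Zfp365 held 371, 104 and 290 CPM and Zfp644 held 194, 58.1 and 102 CPM. The CCCH mRNA decay genes (3) and the imprint control genes (2) had none.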

How the data were processed

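Total RNA of the hippocampus was sequenced from 3 mice, 1 per group. The tools that the submitters' processing notes name are Trim Galore 0.6.6, RSEM 1.3.3, STAR 2.7.9a and DESeq2 1.36.0, with mm10 as the build. DESeq2 was not used here. The authors counted splicing events with rMATS for each pair of libraries. The 15 tables deposited hold inclusion and skipping counts per event and library, from junction reads and reads inside the alternative part. They also hold PSI as a fraction made by the authors from counts and effective form lengths in nt. The p-values, FDR and PSI differences that the authors deposited were not used. The skipping form of 74 nt and the read length in the methods of the study differ, which was not resolved.

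PSI recomputed from the counts deviated from the deposited fraction by at most 5.0e-04, and a library in 2 tables had identical counts in 14737 of 14737 cases, which together with the pair each table is named for assigned columns to libraries. Events were joined by gene and coordinates. PSI has 95% Clopper-Pearson intervals, differences have Newcombe intervals and totals have Poisson intervals. Intervals cover counting error only, and no molecular identifiers were used. Events with at least 10 counts in both libraries were tested with Fisher's exact test (scipy 1.17.1), with Benjamini-Hochberg adjustment within event type over all genes. This compares the reads of 2 libraries and not the conditions, since no group has a replicate. The test was checked on simulated counts at the real depths, where 76.5%, 73.5% and 73.5% of 200 events with a PSI difference of 0.5 were called in the 3 pairs. These rates hold for the depths of all 3573, 3642 and 4362 events tested and not for Zfp events, whose median count in the smaller library was 28, 18 and 25, against 35, 32 and 32. The simulated forms also had equal lengths and the changed events intermediate levels, so the rates do not cover long exons that are almost always included. TMM factors came from edgeR 4.0.16 (R 4.3.3).

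Exons were annotated with GENCODE M21 on mm10, and 78 of 78 Zfp symbols matched. A C2H2 motif was 2 cysteines with 2 to 4 residues between them, 12 residues, and 2 histidines with 3 to 5 residues between them. A KRAB-like motif was a pattern of the KRAB A box, so that a gene without a match can still hold a KRAB domain. Mutually exclusive exons were read with the second exon as the inclusion form on the minus strand, as the form lengths show. Named events were, per pair and 1 per gene, up to 10 with 10 counts in every library, ranked by the distance of the difference interval from 0, then the 10 deepest, the 2 deepest of each type other than skipped exons and up to 8 KRAB exons. Named genes were the 10 with the highest totals and, per pair, the 4 highest and 4 lowest ratios. The members and gene lists were chosen with earlier results of these data known.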

Additional observations from a re-analysis of the deposited data

How the results depend on the processing

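No Zfp event was called in any pair with a minimum of 5, 10 or 20 counts or with none, with a size threshold of 0.10 or 0.20, or with adjustment over all events of a pair. Over all genes, calls between CUG300 + CWG-cPIP and CUG300 + vehicle were 32 at a size of 0.15 and 20 at 0.20, and between CUG300 + CWG-cPIP and CUG10 + vehicle they were 9 at 0.15, 15 at 0.10 and 5 with adjustment over all events of a pair. The median ratio of Zfp totals of CUG300 + CWG-cPIP over CUG300 + vehicle was 2.58, and 1.64 with TMM factors, a scaling that moved the median of all genes to 1.04 as well. It was 2.40 without Ttr in the library totals, 2.03 with the deepest event of each gene, 1.91 with no minimum and a pseudocount of 0.5, and 3.09 with a minimum of 100 counts. Between CUG300 + vehicle and CUG10 + vehicle the median was 0.537 to 0.754 under the same alternatives, and between CUG300 + CWG-cPIP and CUG10 + vehicle 1.19 to 1.36. With TMM factors Zfp428 was at 1.58 and Zfp207 at 0.949 in CUG300 + vehicle over CUG10 + vehicle. Chosen after seeing the data, the deepest event of Zfp638 alone gave 0.391 in that pair and 4.09 in CUG300 + CWG-cPIP over CUG300 + vehicle. With plain shares of counts every named difference stayed inside its interval. The number of Zfp events beyond the size threshold moved with the minimum, to 17, 17 and 19 at 5 counts and 3, 3 and 1 at 20 counts in the 3 pairs. No paired analysis was possible because each group has 1 mouse.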
